A study of Mus musculus with 8 samples.

Results

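The 39 Hox genes of the mouse were described in single cells of whole intervertebral discs. Members were the rows of the count tables named Hoxa, Hoxb, Hoxc or Hoxd followed by a number, with antisense names left out. They came to 40 rows of 31053, since Hoxd4 is counted under 2 gene identifiers, which were summed. The mice carried Tagln-CreERt2, a tamoxifen-inducible Cre driven by the promoter of transgelin (Tagln), a gene of contractile cells, together with R26tdTomato, a red reporter in the Rosa26 locus. Both age groups shared this genotype and tamoxifen on day 5 after birth, and there was no group without Cre. Discs were taken 10 days after birth (P10) or at 8 weeks, and the lumbar discs (levels 1 to 6) and the tail discs (levels 5 to 9) were combined, so that no cell could be assigned to either region. The labels list 4 samples per age, but each age is held in 1 count matrix with 1 barcode suffix, which made 1 library per age. Without replicate libraries there was no test and no p-value. The reporter was not used here.

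Hox proteins are homeodomain transcription factors that give cells along the body axis their position. The genes lie in 4 clusters, HoxA to HoxD, and genes at matching places in the clusters form paralog groups. Low-numbered groups are known for the hindbrain and neck, middle groups for the trunk, and high-numbered groups for the lumbar, sacral and tail regions and the limb ends. In the disc, the nucleus pulposus (NP) descends from the notochord, while the annulus fibrosus and the cartilage end plates descend from the sclerotome of the somites.

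After filtering, 6999 cells at P10 and 6342 cells at 8 weeks remained, with a median of 18300 and 14683.5 unique molecular identifiers (UMIs, each 1 counted RNA molecule) per cell, and the libraries shared 12 barcodes. Cells were grouped by clustering without any Hox gene and named from fixed marker genes, so that names end in "-like". NP-like cells numbered 295 at P10 and 2303 at 8 weeks. Of 12 NP markers, 11 at P10 and 10 at 8 weeks were at least 2-fold above the other cells, and Noto was at 0 at both ages. Chondrocyte-like cells numbered 3407 and 1297, tendon fibroblast-like cells 827 and 1695, hypertrophic chondrocyte-like cells 375 and 660, and endothelial-like cells 118 and 127. The named classes were largely made of other clusters at each age: NP-like cells lay mainly in cluster 15 at P10 and in clusters 17 and 19 at 8 weeks, chondrocyte-like cells in clusters 0, 4, 7 and 11 and then 20 and 21, and tendon fibroblast-like cells in cluster 3 and then 23 and 24. Hypertrophic chondrocyte-like cells lay in cluster 6 at P10 and in clusters 22, 26 and 6 at 8 weeks, and endothelial-like cells in cluster 12 at both ages. The libraries were clustered together with no correction between them, so age and library cannot be told apart in this split. Of 13 chondrocyte markers, 4 at P10 and 11 at 8 weeks were at least 2-fold above the other cells in chondrocyte-like cells. Clusters 1 (1000 cells) and 5 (319 cells) of P10 stayed unnamed and are in no main chondrocyte-like value. Of the 13 markers, 13 in cluster 1 and 12 in cluster 5 were found in at least 25% of cells. In these clusters 2 and 0 of the markers were at least 2-fold above the other cells. Levels of both clusters are given below with the small classes. Doublet calling marked 0 cells at P10 and had not worked there.

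Hox RNA was sparse. The members held 31417 UMIs at P10 and 37250 at 8 weeks, or 221.1 and 340.4 CPM (counts scaled to a total of 1000000 per class or library). At least 1 Hox UMI was found in 90.1% of cells at P10 and 91.4% at 8 weeks, with a median of 4 and 5 per cell. Of the 39 genes, 30 and 31 had over 100 UMIs. The rarest were 4 low-numbered genes and Hoxd12. Hoxd12 had 0 UMIs at P10 and 1 at 8 weeks, Hoxd4 had 0 and 6, Hoxd3 had 3 and 8, Hoxd1 had 7 and 13, and Hoxb1 had 31 and 5. Only levels of the same gene, or of the same sum of genes, are compared below, across classes or ages.

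In the GRCm38 build with GENCODE gene models, HoxA spans chr6:52155590-52260880 on the minus strand and holds 11 members. HoxB spans chr11:96194316-96368256 (10 members), HoxC chr15:102921103-103036852 (9 members) and HoxD chr2:74668310-74765142 (9 members), all on the plus strand. Of the members, 12 share exon bases with another counted gene, 6 of them on the same strand and 9 on the opposite one, and 27 share none. The overlap was largest for Hoxd3, with 53.1% of its exon bases inside Gm28230, and for Hoxb3, with 52.9% inside Hoxb3os. Values of these 12 genes are uncertain to that extent, because how the counting treated overlaps is not given in the sources used here. Of the genes on which the results turn, Hoxa7 shares 20.4% of its exon bases with Hoxaas3 on the other strand and Hoxc10 shares 166 bases with Hoxc5.

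RefSeq promoter windows (GRCm38.p6, 250 bases before to 50 after the transcript start) were found for 22 members, in 24 windows. The 5 below belong to genes at opposite ends of the NP-like pattern: Hoxd9, Hoxd10 and Hoxa7, which were high in NP-like cells, and Hoxa11 and Hoxa13, which were nearly lacking there. CG dinucleotides are in capitals.
Hoxd9 (chr2:74697513-74697812, plus strand): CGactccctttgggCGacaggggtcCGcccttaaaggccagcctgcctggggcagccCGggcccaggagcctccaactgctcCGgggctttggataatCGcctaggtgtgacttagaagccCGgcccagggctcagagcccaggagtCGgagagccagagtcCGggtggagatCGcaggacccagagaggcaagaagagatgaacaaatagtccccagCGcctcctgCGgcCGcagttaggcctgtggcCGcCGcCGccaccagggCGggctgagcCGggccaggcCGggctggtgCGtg
Hoxd10 (chr2:74691641-74691940, plus strand): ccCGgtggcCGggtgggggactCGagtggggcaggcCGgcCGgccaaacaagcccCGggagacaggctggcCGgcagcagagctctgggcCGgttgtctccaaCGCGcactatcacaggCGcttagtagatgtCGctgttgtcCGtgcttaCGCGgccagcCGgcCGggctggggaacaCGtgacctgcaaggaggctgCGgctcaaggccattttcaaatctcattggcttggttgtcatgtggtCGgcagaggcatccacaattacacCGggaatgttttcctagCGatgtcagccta
Hoxa7 (chr6:52218524-52218823, minus strand): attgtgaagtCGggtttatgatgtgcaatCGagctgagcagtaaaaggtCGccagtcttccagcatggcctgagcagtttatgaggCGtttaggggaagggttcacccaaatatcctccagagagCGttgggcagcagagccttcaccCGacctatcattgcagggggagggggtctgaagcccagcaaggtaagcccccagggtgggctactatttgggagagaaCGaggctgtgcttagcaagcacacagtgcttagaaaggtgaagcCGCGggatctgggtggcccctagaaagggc
Hoxa11 (chr6:52245761-52246060, minus strand): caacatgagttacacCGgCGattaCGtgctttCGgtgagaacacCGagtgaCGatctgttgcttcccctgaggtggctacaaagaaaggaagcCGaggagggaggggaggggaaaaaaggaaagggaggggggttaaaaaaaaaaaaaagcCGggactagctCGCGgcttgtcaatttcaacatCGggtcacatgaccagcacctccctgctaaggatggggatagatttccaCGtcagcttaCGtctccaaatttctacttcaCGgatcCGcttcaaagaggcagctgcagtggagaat
Hoxa13 (chr6:52260831-52261130, minus strand): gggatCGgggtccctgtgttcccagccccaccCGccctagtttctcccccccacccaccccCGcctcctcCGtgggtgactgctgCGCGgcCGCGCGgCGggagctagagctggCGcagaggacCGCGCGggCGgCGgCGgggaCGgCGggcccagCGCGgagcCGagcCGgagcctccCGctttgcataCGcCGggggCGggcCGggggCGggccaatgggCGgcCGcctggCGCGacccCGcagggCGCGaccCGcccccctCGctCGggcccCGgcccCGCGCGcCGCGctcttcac
The Hoxd9, Hoxd10 and Hoxa7 windows held 20, 22 and 9 CG dinucleotides, and those of Hoxa11 and Hoxa13 held 15 and 45, so the count did not divide the genes by their level in NP-like cells. Over the 24 windows of members the count ran from 4 to 45 with a median of 14.5, against a median of 7 over all 32851 promoter windows. TTTATG, a motif known to be bound by Cdx proteins, was searched on both strands and was found in the windows of 5 members, while 11.9% of all windows held it. It occurred at 2 places in the Hoxa7 window and at none in the other 4 windows shown. TGACAG, a motif known to be bound by Meis proteins, was in 2 members' windows against 19.2% of all windows. The motifs can overlap by their shared TG, and no member's window held both.

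**Figure D1:**
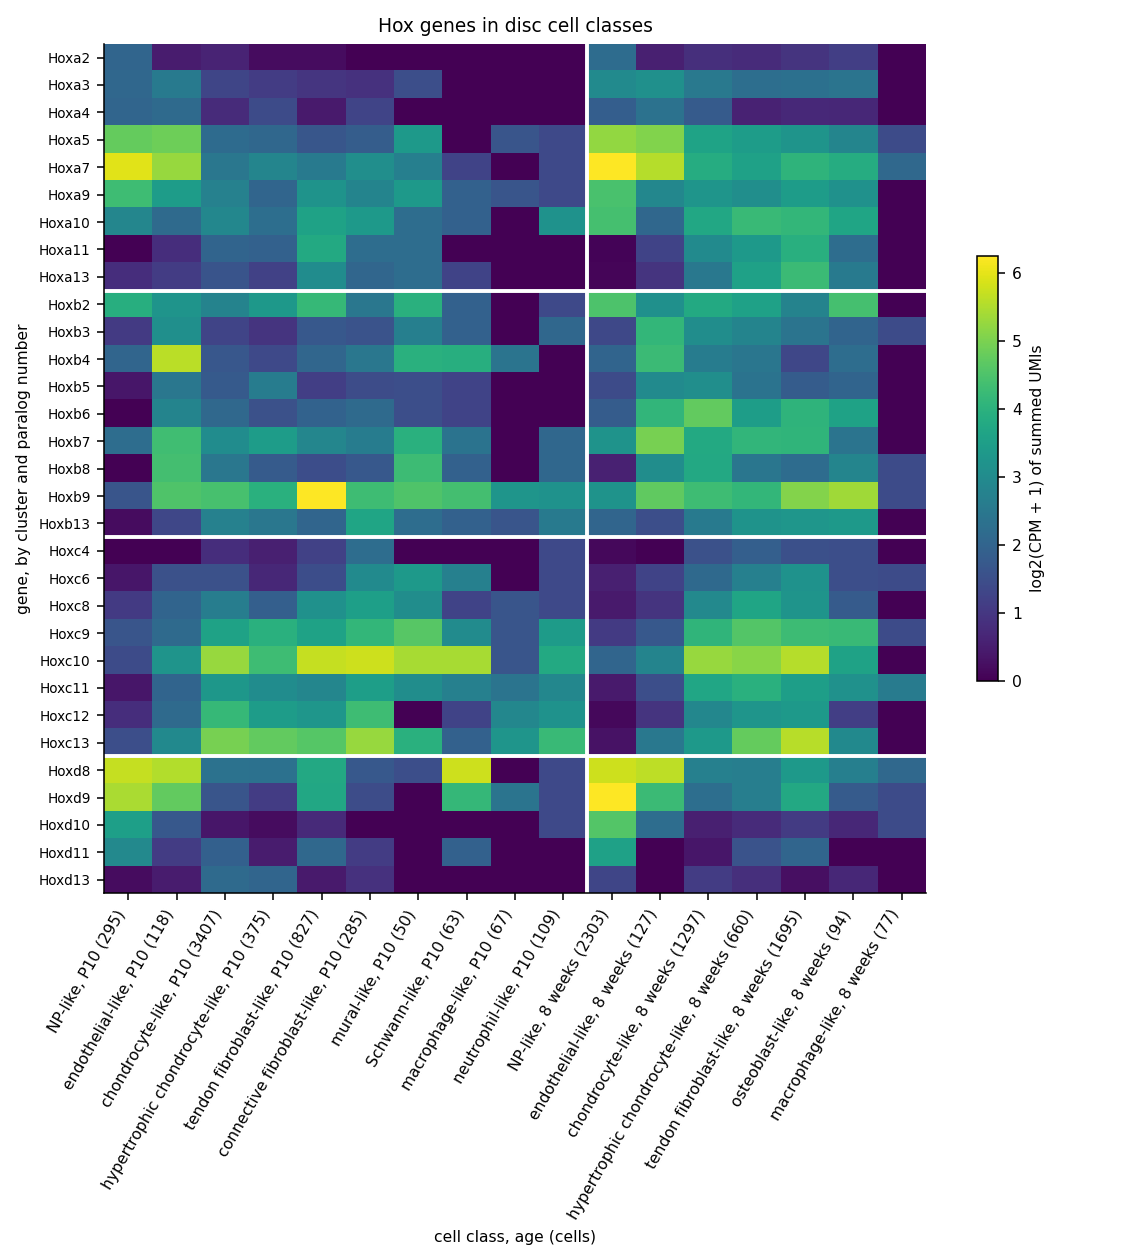
Level of the 31 Hox genes with at least 100 UMIs in 1 library or both (rows, by cluster and paralog number), as log2(CPM + 1) of summed counts. Columns are named classes with at least 50 cells at P10 and at 8 weeks, without skeletal muscle-like cells. The NP-like column is bright in the middle of HoxA and HoxD and dark over HoxC, where chondrocyte-like and tendon fibroblast-like columns are bright.

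The 4 clusters were used unequally by the disc cells. NP-like cells carried mostly HoxA and HoxD RNA, at 124.6 and 111.1 CPM at P10 and 166.6 and 163.9 CPM at 8 weeks. Their HoxB sum was 24.4 CPM at P10 and 50.4 at 8 weeks, and their HoxC sum was 8.14 and 5.77 CPM. Chondrocyte-like cells showed the reverse balance of HoxC and HoxD, with HoxC at 113.6 CPM at P10 and 94.1 at 8 weeks and HoxD at 12.8 and 11.4. Their HoxB sum was 53.6 and 107.8 CPM and their HoxA sum 28.7 and 66.9. HoxC made up 3.0% and 1.5% of the Hox UMIs of NP-like cells and 54.4% and 33.6% of those of chondrocyte-like cells.

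Within a library the NP-like over chondrocyte-like difference was similar in direction at both ages. The log2 ratio of the HoxD sum was 3.12 at P10, with a 95% interval from 2.97 to 3.26, and 3.85 at 8 weeks, with one from 3.67 to 4.03. For the HoxC sum it was -3.80 (-4.22 to -3.41) and -4.03 (-4.22 to -3.84). HoxA was higher in NP-like cells, by 2.12 and 1.32, and HoxB was lower, at -1.13 and -1.10. Over all members together NP-like cells were only 0.36 and 0.46 higher, so the contrast lay in which clusters were used more than in the total. Intervals in this report are exact and cover counting error only, since cells of 1 library are not replicates. The shares of lumbar and tail discs in each class are not known, so region and class cannot be told apart in these differences.

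**Figure D2:**
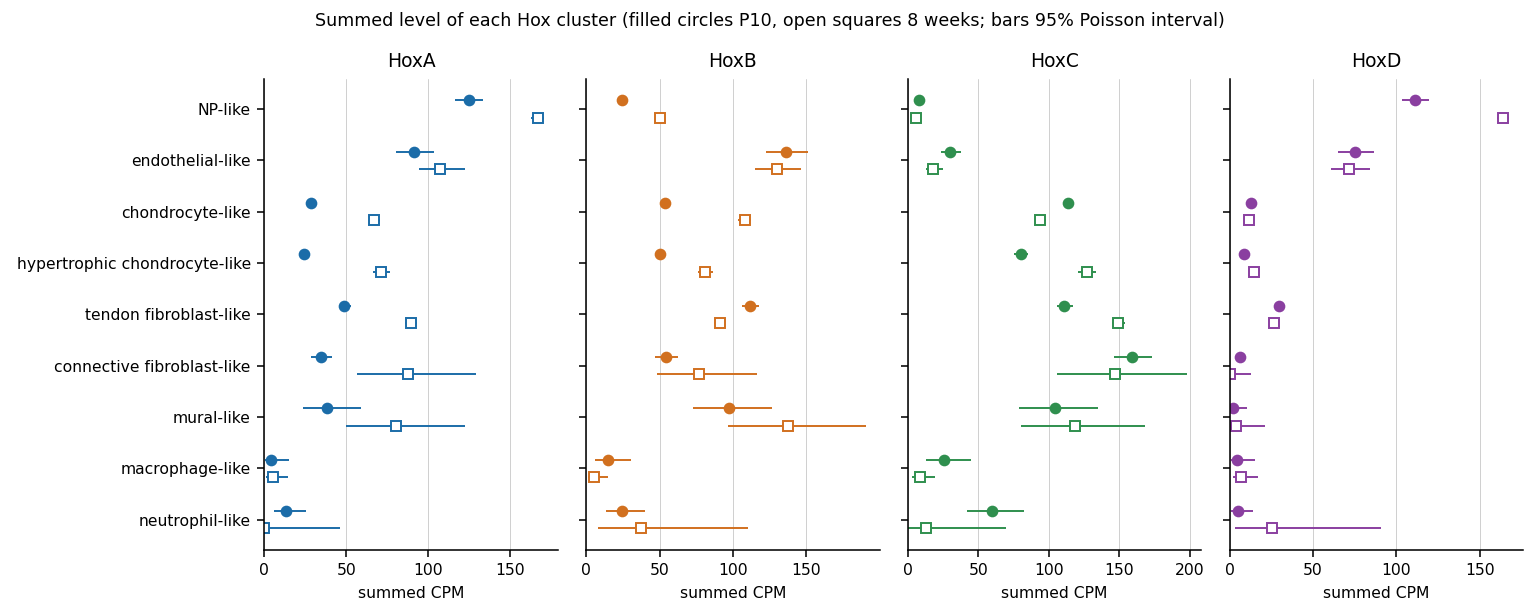
Summed CPM of each Hox cluster (points, axis from 0) with exact 95% Poisson intervals by class, filled circles for P10 and open squares for 8 weeks. Schwann-like, osteoblast-like and skeletal muscle-like cells are not shown. NP-like points lie far to the right for HoxA and HoxD and near 0 for HoxC.

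Single members followed their cluster with exceptions. Members entered a comparison with at least 100 UMIs in both classes together and were called with a difference of at least 2-fold. At P10, 27 members entered, of which 8 were higher and 15 lower in NP-like than in chondrocyte-like cells, where 20.1% and 15.4% of all 11540 genes were called higher and lower. At 8 weeks, 29 entered, with 8 higher and 14 lower, against 20.1% and 15.6% of 12345 genes. The share of members that were lower was thus well above that of all genes and the share that were higher close to it. The median log2 ratio of the members was -2.28 at P10 and -0.76 at 8 weeks, against 0.18 and 0.22 over all genes entered.

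HoxD supplied the largest ratios. Hoxd9, a thoracic and lumbar patterning gene that also acts in the forelimb, was at 42.6 CPM in NP-like and 2.11 CPM in chondrocyte-like cells at P10, and at 74.7 and 3.78 CPM at 8 weeks, with log2 ratios of 4.33 and 4.30. Hoxd8 was at 51.0 against 4.14 CPM and at 53.7 against 5.54 CPM. Hoxd10, known for the lumbar spinal cord and hindlimb, was at 10.4 CPM in NP-like cells with 19 UMIs in all chondrocyte-like cells at P10, and at 22.8 against 0.46 CPM at 8 weeks (log2 ratio 5.63, interval 4.78 to 6.63). Hoxd11, a sacral and forearm gene, was at 6.61 against 2.78 CPM and then 10.8 against 0.29 CPM, the second difference having a log2 ratio of 5.21. The block of high genes ended before Hoxd13, the gene of the digits, which was at 0.15 CPM in NP-like cells at P10 (1 UMI) and 1.45 at 8 weeks, with 3.44 and 1.18 CPM in chondrocyte-like cells.

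HoxA was split within the cluster. Hoxa5, a gene of the neck and upper trunk, was at 26.3 CPM in NP-like against 3.54 CPM in chondrocyte-like cells at P10 and at 36.6 against 11.2 CPM at 8 weeks. Hoxa7, a trunk gene, was at 61.3 against 4.55 CPM and at 74.1 against 13.5 CPM, with log2 ratios of 3.75 and 2.46. Hoxa9 was higher as well, with log2 ratios of 1.74 and 1.29, and Hoxa10, which acts with its paralogs to keep the lumbar vertebrae free of ribs, was within 2-fold at both ages. Hoxa11 had 0 UMIs in NP-like cells at P10, at least 6.53-fold lower than in chondrocyte-like cells when 3 counts over the group stand for 0, and 2 UMIs in all 2303 NP-like cells at 8 weeks (log2 ratio -7.26). Hoxa13, a gene of the limb ends and the hindgut, had 5 UMIs at P10 and 3 at 8 weeks, with log2 ratios of -1.42 and -6.09. The promoter window of Hoxa11 is among those printed above.

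All HoxC members that entered were lower in NP-like cells. These were Hoxc6 and Hoxc8 to Hoxc13, with log2 ratios between -4.86 and -2.28 at P10 and between -6.13 and -2.90 at 8 weeks. Hoxc10, a lumbar patterning gene, was at 1.69 CPM in NP-like and 38.1 CPM in chondrocyte-like cells at P10 and at 3.11 and 37.7 CPM at 8 weeks. Hoxc13, known for hair and nails and for the tail end of the axis, was at 1.84 and 29.9 CPM and then at 0.23 and 9.44 CPM. Hoxc4 and Hoxc5 did not reach the minimum, and neither did Hoxb1 and Hoxd12 among others, so 9 of the 39 members are in this comparison at neither age. Part of the little HoxC RNA in P10 NP-like cells lay in cells in which other classes' markers reached 10 UMIs or more: without those 16 cells the sum was 4.86 CPM, and with cells over a doublet score of 0.25 left out it was 2.61 CPM (16 UMIs), while HoxA was at 125.3 and 127.3 CPM. In NP-like cells the 13 chondrocyte markers summed to 12834 CPM at the earlier age and 13242 at the later one, against 94151 and 50655 in the remaining cells, and none was 2-fold higher in NP-like cells.

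The HoxB sum was lower in NP-like cells, and its members differed. Hoxb2, a hindbrain gene, was higher at 13.98 against 5.93 CPM at P10 and was within 2-fold at 8 weeks, at 21.4 against 12.8 CPM. Hoxb6 and Hoxb8, both trunk genes, had 0 UMIs in NP-like cells at P10, at least 7.19-fold and 9.86-fold lower than in chondrocyte-like cells, and were at 2.50 against 25.9 CPM and 0.50 against 12.6 CPM at 8 weeks. Hoxb5 was lower at both ages (log2 ratios -2.99 and -2.14), and so was Hoxb9 (-3.26 and -1.17). Hoxb3 was called at 8 weeks alone (-2.24), and Hoxb4 and Hoxb7 were called at neither age. Hoxb13, the gene at the 5′ end of the cluster, was called at P10 (-5.22, 1 UMI in NP-like cells) and not at 8 weeks (-0.68).

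**Figure D3:**
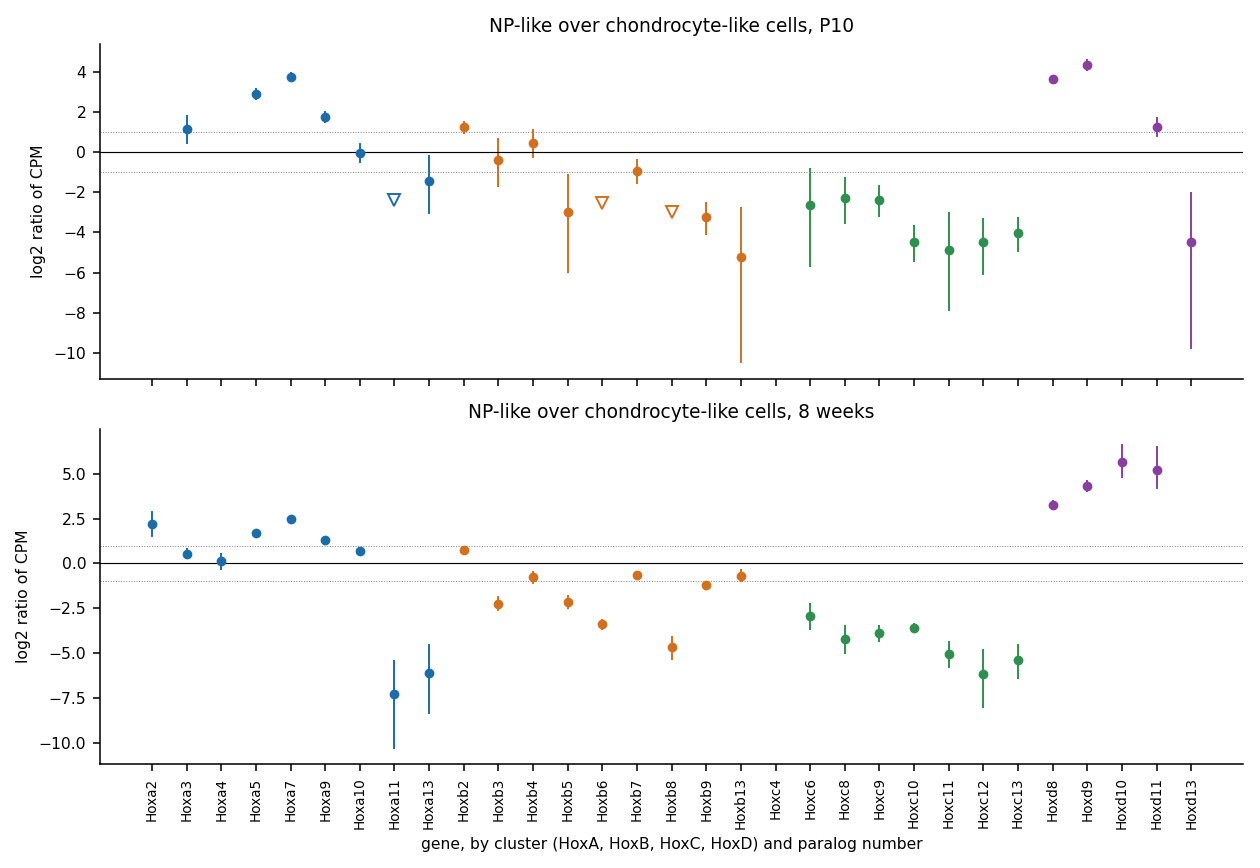
Log2 ratio of CPM in NP-like over chondrocyte-like cells for each member that entered, at P10 and at 8 weeks, with exact conditional 95% intervals and dotted lines at 2-fold. Hoxd8 to Hoxd11 and Hoxa5 to Hoxa9 lie above 0, and every HoxC member shown lies below it.

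The shares of cells with a UMI gave the same order. Each cell was thinned to 5000 UMIs, which left out 26 of 295 and 357 of 2303 NP-like cells and 85 of 3407 and 59 of 1297 chondrocyte-like cells. At P10, 17.5% of NP-like cells then held a Hoxd9 UMI (exact interval 13.1% to 22.6%), and 30.3% did at 8 weeks (28.3% to 32.4%), against 1.23% and 2.26% of chondrocyte-like cells. Hoxc10 UMIs were in 0.743% (0.0902% to 2.66%) and 1.34% (0.875% to 1.95%) of NP-like cells and in 16.4% and 16.2% of chondrocyte-like cells. Unthinned, Hoxd9 was in 48.1% and 58.0% of NP-like cells, and Hoxc10 in 2.71% and 4.60%. Neutrophil-like cells, a blood cell class taken as background, held Hoxc10 in 6 of 109 cells at P10 (5.50%) at a median of 3263 UMIs per cell, against 17518 in NP-like cells. The Hoxc10 share of P10 NP-like cells was therefore at or below background and is not read as expression. Of these 109 cells, 14 carried markers of another class and 11 were over the doublet score limit, and the source of their Hox UMIs was not tested. Hoxd9 was in 1 of 109 neutrophil-like cells (0.917%), and the neutrophil-like HoxC sum of 59.6 CPM at P10 was above the 8.14 CPM of NP-like cells. At 8 weeks Hoxc10 was in 0 of 77 macrophage-like cells, which allows a share of up to 3.896%, at a median of 6938 UMIs per cell against 15468 in NP-like cells. No order between the 2 classes is read from these shares.

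Sums over paralog groups were compared between the classes. In NP-like cells groups 4 to 8 summed to 151.0 CPM at P10 and 184.6 at 8 weeks, groups 9 to 11 to 91.1 and 162.2, and groups 12 and 13 to 3.69 and 4.96. Chondrocyte-like cells had 41.1 and 110.2 CPM of groups 4 to 8, 99.03 and 116.6 of groups 9 to 11, and 58.4 and 26.6 of groups 12 and 13. The NP-like over chondrocyte-like log2 ratio was largest for group 7 (2.47 and 1.64) and smallest for group 12 (-4.49 and -5.81). Group 6 departed from its neighbours, at -2.18 and -3.06, with Hoxb6 and Hoxc6 low and Hoxa6 rare. Both group 12 genes are rare or lie in HoxC, and all but 1 UMI of that group in NP-like cells came from Hoxc12, so position along a cluster and cluster identity cannot be told apart there.

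**Figure D4:**
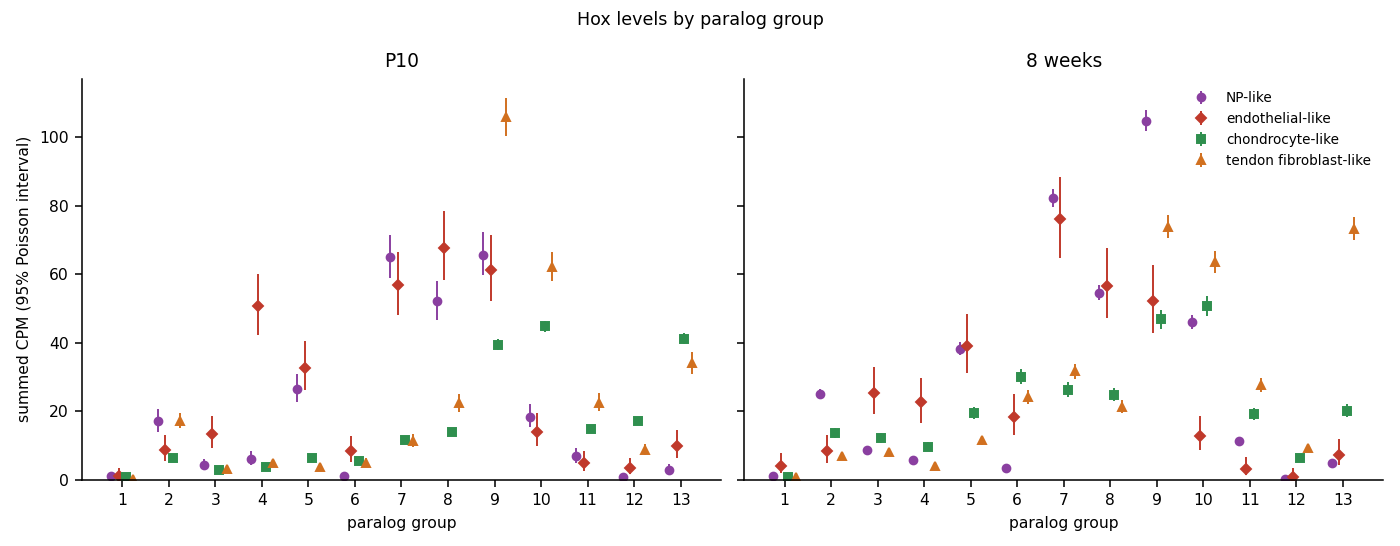
Summed CPM of each paralog group from 1 to 13 in 4 classes at P10 and 8 weeks, points with exact 95% Poisson intervals, to be read up and down within a group. NP-like and endothelial-like points lie together and above the others at groups 5, 7 and 8, and tendon fibroblast-like points are the highest at group 13 at 8 weeks.

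Endothelial-like cells, which line blood vessels, shared the high HoxD and low HoxC levels in part. All 9 of their markers were at least 2-fold above the other cells. Their HoxC sum was low, at 30.1 CPM at P10 and 18.0 at 8 weeks, and HoxD was at 75.4 and 71.9. Against chondrocyte-like cells 27 members entered at P10, with 9 higher and 9 lower (30.3% and 14.6% of all genes), and 24 entered at 8 weeks, with 7 higher and 10 lower (25.1% and 17.7%). Hoxd8 was at 44.9 and 48.4 CPM, Hoxa7 at 37.7 and 46.1, Hoxa5 at 28.2 and 32.3 and Hoxd9 at 25.9 and 18.0, each at least 2-fold above chondrocyte-like cells. They differed from NP-like cells in HoxB, with 136.4 and 129.9 CPM. At 8 weeks 19 members entered the direct comparison, and NP-like cells were 2-fold higher in 7 and lower in 5 (19.5% and 19.0% of all genes). The 5 were Hoxb3, Hoxb4, Hoxb6, Hoxb7 and Hoxb9, and the 7 were Hoxa2, Hoxa9, Hoxa10, Hoxb2, Hoxd9, Hoxd10 and Hoxd11. Markers of another class were carried by 34.7% of endothelial-like cells at P10 and 26.8% at 8 weeks. Without those cells HoxD was at 80.2 and 76.9 CPM and HoxC at 26.4 and 8.84.

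Tendon fibroblast-like cells, named from markers of tendon, had HoxC at 111.1 CPM at P10 and 149.3 at 8 weeks, against 113.6 and 94.1 in chondrocyte-like cells. At P10, 6 of 27 members were higher and 2 lower than in chondrocyte-like cells (10.7% and 21.0% of all genes), and at 8 weeks 5 of 25 were higher and 4 lower (10.4% and 16.7%). Hoxa11 was at 12.9 against 3.01 CPM and 14.3 against 6.97 CPM, Hoxa13 at 7.20 against 2.05 and 18.2 against 4.66, and Hoxd9 at 12.5 against 2.11 and 12.5 against 3.78. Hoxb9, a rib-region gene, was at 74.0 CPM at P10 against 20.5. Hoxb2 was higher at P10, at 17.1 against 5.93 CPM, and lower at 8 weeks, at 5.90 against 12.8 CPM. Hoxc13 was at 46.2 against 9.44 CPM at 8 weeks and within 2-fold at P10, at 23.4 against 29.9 CPM. Against NP-like cells at 8 weeks, 29 members entered, and NP-like cells were higher in 11 and lower in 14 (22.7% and 11.4%). Hoxa11, Hoxa13 and Hoxc13 had the lowest ratios (-8.29, -8.06 and -7.67).

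Hypertrophic chondrocyte-like cells, the matrix-mineralising form, differed from chondrocyte-like cells in few members. The shares called were close to those of all genes. At P10, 1 of 27 members was higher and 3 were lower (5.83% and 11.7% of all genes), and at 8 weeks 2 of 25 were higher and 2 lower (5.3% and 11.4%). The 2 higher at 8 weeks were Hoxa13, at 10.8 against 4.66 CPM, and Hoxc13, at 26.3 against 9.44 CPM. In cluster 22 (269 cells) Hoxc13 was at 40.6 CPM, and in cluster 6, the hypertrophic cluster present at both ages, it was at 10.7 CPM at 8 weeks.

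Smaller classes are given as levels only. In the 63 Schwann-like cells of P10, the glia of nerves, HoxD reached 73.1 CPM, with Hoxd8 at 53.4 CPM, while HoxA was at 8.43. Mural-like cells, the contractile cells around vessels, had 96.9 and 137.5 CPM of HoxB, and HoxD at 1.83 and 3.82 CPM. The unnamed clusters 1 and 5 of P10 had 129.5 and 134.9 CPM of HoxC and 9.89 and 23.3 CPM of HoxD, nearer to chondrocyte-like than to NP-like levels. Their 13 chondrocyte markers summed to 142882 and 116368 CPM. The P10 chondrocyte-like cells had 97218 CPM of these markers, against 84576 CPM in the remaining cells. The P10 chondrocyte-like class therefore left out cells with more RNA of these markers than it held. Connective fibroblast-like cells at P10 had 159.2 CPM of HoxC and 6.29 of HoxD. Of the classes named with at least 50 cells at P10, low HoxC beside high HoxD was therefore seen in NP-like and endothelial-like cells, and high HoxD beside HoxC of 66.1 CPM in Schwann-like cells. That HoxC level (interval 48.5 to 87.9) cannot be told from the 59.6 CPM (42.0 to 82.2) of the P10 neutrophil-like background. It is therefore not read as setting Schwann-like cells apart. Macrophage-like cells, which come from blood precursors, had 48.8 and 25.1 CPM over all members. The P10 neutrophil-like cells had 101.5 CPM, and a level of this size in any small P10 class cannot be told from that background.

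Between the ages most differences were towards higher levels at 8 weeks, as for genes in general. Age and library cannot be told apart, since each age is 1 library. The shares of lumbar and tail discs at each age are not known either. A difference in region between the ages therefore cannot be told apart from one in age. The median gene was itself 0.35 higher on the log2 scale at 8 weeks in NP-like cells, 0.41 in chondrocyte-like, 0.41 in tendon fibroblast-like, 0.17 in hypertrophic chondrocyte-like and 0.18 in endothelial-like cells. In NP-like cells 18 members entered, and 7 were higher and 0 lower, where 15.3% and 2.69% of all genes were. Relative to the median gene, 4 of the 7 were still 2-fold higher: Hoxa10, Hoxb6, Hoxb9 and Hoxb13. In chondrocyte-like cells 12 of 28 were higher and 4 lower (23.9% and 5.16%). Relative to the median gene, 8 were higher and 4 lower there. Shares of all genes relative to the median gene were not computed for either class. In tendon fibroblast-like cells 9 of 24 were higher and 2 lower (24.2% and 5.85%), in hypertrophic chondrocyte-like cells 8 of 19 were higher and 0 lower (20.3% and 9.97%), and in endothelial-like cells 0 of 7 were higher and 1 lower (6.64% and 2.7%).

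In NP-like cells Hoxa10 was at 6.30 CPM at P10 and 20.2 at 8 weeks (log2 ratio 1.68, interval 1.23 to 2.17). Hoxb9 was at 2.15 and 8.27 CPM (1.94, interval 1.18 to 2.83). Hoxb13 had 1 UMI at P10 and 136 at 8 weeks (4.33, interval 1.83 to 9.64), and Hoxb6 had 0 and 110. Both late levels were low, at 3.09 and 2.50 CPM, and the P10 sum rested on 295 cells. Of the genes that were higher in NP-like than in chondrocyte-like cells, Hoxd10 was past 2-fold, at 10.4 and 22.8 CPM (1.13). Hoxd9 was at 42.6 and 74.7 CPM (0.81), Hoxd8 differed by 0.08 and Hoxa7 by 0.27.

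Of the members called higher at 8 weeks in chondrocyte-like cells, Hoxb6 had the highest ratio, at 3.32 CPM at P10 and 25.9 at 8 weeks (log2 ratio 2.97, interval 2.74 to 3.20). It was also higher at 8 weeks in tendon fibroblast-like cells (2.87 and 15.8 CPM) and hypertrophic chondrocyte-like cells (1.92 and 10.0 CPM), so it was called in each of the 4 classes in which it entered. The ages differed by position along the clusters in chondrocyte-like cells. Paralog groups 1 to 3 and 4 to 8 were higher at 8 weeks (log2 ratios 1.39 and 1.42), groups 9 to 11 differed by 0.24, and groups 12 and 13 were lower (-1.13, interval -1.26 to -1.01). The size of the last difference varied by cluster. Groups 12 and 13 were at 37.3 CPM in cluster 20 and 19.8 in cluster 21 at 8 weeks. In the chondrocyte-like clusters of P10 they ran from 43.8 (cluster 7) to 64.1 CPM (cluster 0). The 4 genes called lower were Hoxd11 (-3.24), Hoxc13 (-1.66, from 29.9 to 9.44 CPM), Hoxd13 (-1.55) and Hoxc12 (-1.44). In tendon fibroblast-like cells groups 12 and 13 were higher at 8 weeks instead (0.95, interval 0.82 to 1.09), with Hoxc13 at 23.4 CPM at P10 and 46.2 at 8 weeks. The difference between these classes was not tested, and the clusters that make up each class differ between the ages.

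Cluster 6, the hypertrophic cluster with 375 cells at P10 and 146 at 8 weeks, allowed the ages to be compared within 1 cluster. There Hoxb6 was at 1.92 and 7.29 CPM (1.93, interval 1.08 to 2.78), Hoxb3 at 0.921 and 8.13 CPM, and Hoxc13 at 25.9 and 10.7 CPM (-1.28, interval -1.80 to -0.79). These 3 had the same direction as in chondrocyte-like cells, while Hoxc12 was at 9.91 and 8.97 CPM (-0.14, interval -0.75 to 0.43) against -1.44 in chondrocyte-like cells.

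**Figure D5:**
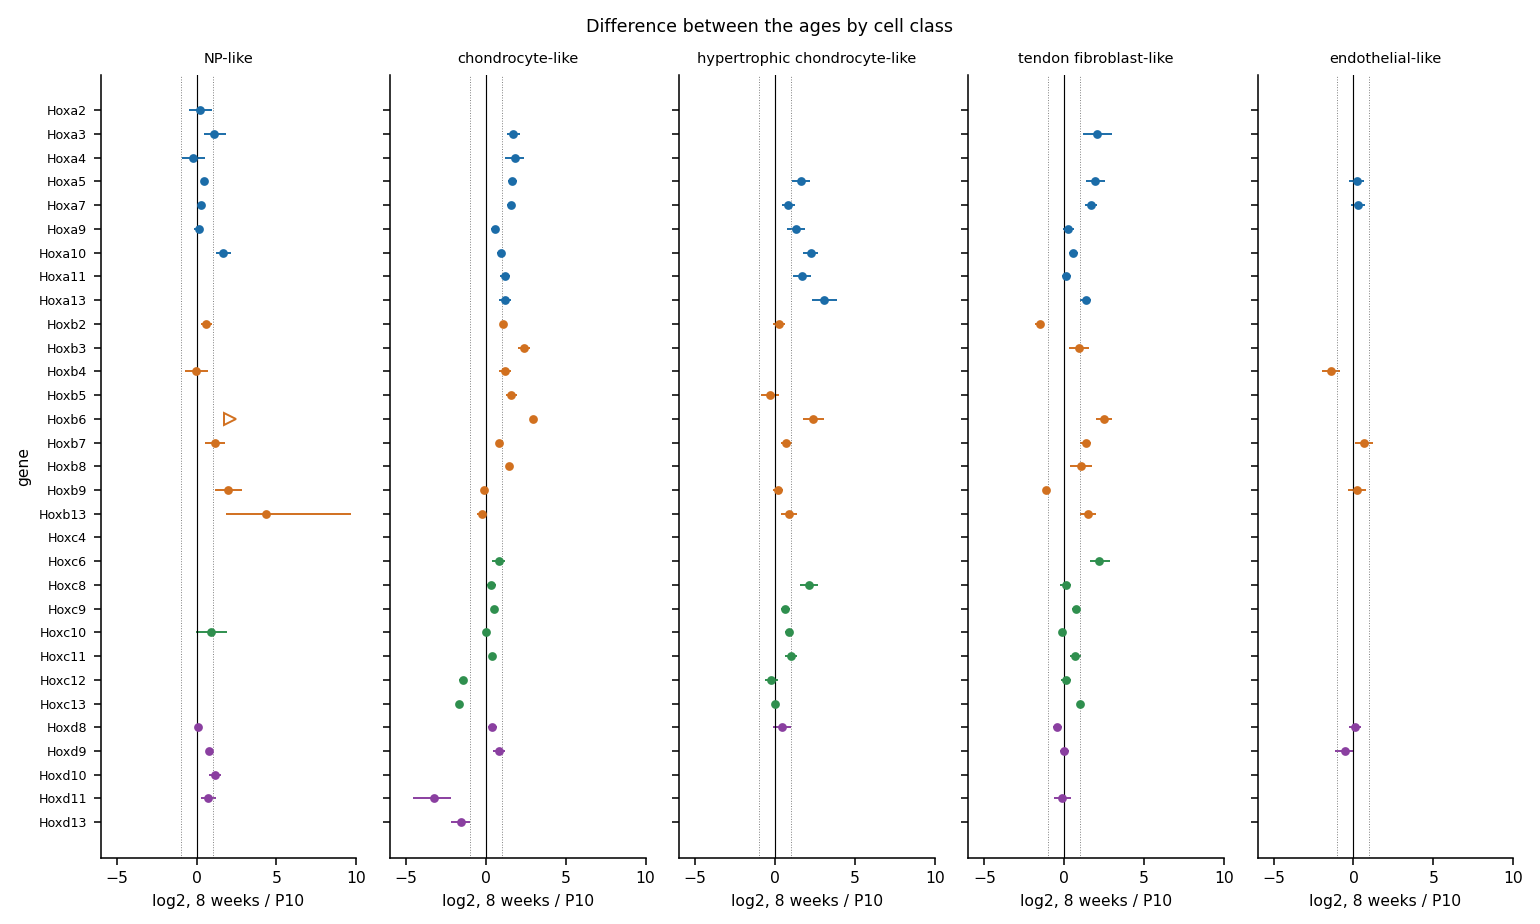
Log2 ratio of CPM at 8 weeks over P10 for members that entered in 5 classes, with exact conditional 95% intervals and dotted lines at 2-fold; the open triangle marks Hoxb6 in NP-like cells, with 0 UMIs at P10, at its lower bound. Most points lie right of 0, and Hoxc12, Hoxc13, Hoxd11 and Hoxd13 lie left of it in chondrocyte-like cells.

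NP-like cells were not uniform. At 8 weeks they formed 4 main clusters. Hoxd9 was at 118.3 CPM in cluster 25 (256 cells), 73.0 in cluster 17 (1042 cells), 61.5 in cluster 19 (873 cells) and 56.6 in cluster 8 (130 cells). Hoxa7 was also highest in cluster 25, at 99.7 CPM, and lay between 69.6 and 73.5 in the others. Hoxa5 was highest in cluster 19, at 55.4 CPM, against 29.7 in cluster 17. Hoxb9 was at 17.03 CPM in cluster 8 and 4.66 in cluster 19. In all 4 clusters the HoxC sum stayed between 3.39 and 11.02 CPM and the HoxD sum between 142.0 and 211.0, so each cluster lay on the same side of the chondrocyte-like levels of 94.1 and 11.4 CPM.

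Chondrocyte-like clusters at 8 weeks differed in their posterior genes. Cluster 20 (683 cells) had Hoxc13 at 15.3 and Hoxb13 at 10.0 CPM, and cluster 21 (555 cells) had them at 5.6 and 1.3 CPM. Hoxb2 was reversed, at 5.2 CPM in cluster 20 and 17.5 in cluster 21. Lumbar and tail discs were combined, and the share of each region in a cluster is not known.

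Co-detection within cells is given as a description, with no test. It used an odds ratio over 10 strata of depth, where 1 means that 2 genes were found in the same cells as often as their separate frequencies give. Over the 192 pairs with at least 10 expected joint cells in NP-like cells at 8 weeks the median was 1.202, and 7 pairs were over 2 and 2 under 0.5. Pairs within a cluster had a median of 1.31 and pairs across clusters 1.18. In chondrocyte-like cells at P10 the median over 290 pairs was 1.26. The highest there was the neighbouring pair Hoxc6 and Hoxc8, found together in 34 cells where 10.5 were expected (odds ratio 4.75).

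In 8-week NP-like cells Hoxc10 and Hoxd9 were found together in 58 cells against 75.5 expected (odds ratio 0.353), and Hoxd13 and Hoxd9 in 32 against 40.9 (0.395), whereas Hoxd11 and Hoxd13 were together in 26 against 12.5 (3.71). These pairs, and the split by Hoxd13 below, were singled out after values were seen. Hoxd9 had odds ratios of 0.989 with Hoxb13, 1.19 with Hoxd11 and 1.22 with Hoxd10. The 55 NP-like cells with a Hoxd13 UMI had Hoxd9 at 52.9 CPM and the other 2248 at 75.5 CPM, which restates the odds ratio of that pair. Their Hoxd11 was at 21.0 against 10.4 CPM, which likewise restates its odds ratio with Hoxd13. Their Hoxb9 was at 19.8 against 7.8 CPM and their Hoxc10 at 7.8 against 2.9 CPM. Hoxb13 was at 1.80 against 3.14 CPM (log2 ratio -0.80, interval -3.10 to 0.78), and Hoxd10 (0.15, interval -0.33 to 0.60) and Hoxa10 (0.26, interval -0.23 to 0.72) had intervals that took in 0. Their median depth was 23957 UMIs against 15343. Without cells carrying markers of another class, 50 cells remained, with Hoxd9 at 44.0 against 75.3 CPM and Hoxd11 at 24.4 against 10.4 CPM. The Hoxb9 and Hoxc10 differences are over all 55 cells and are not given here with cells carrying other markers left out. No cell could be assigned to lumbar or tail discs.

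Other genes of the pathway were taken from lists, and of the 4 members with the most UMIs in NP-like cells those reported here are named. Hox proteins bind DNA with cofactors of the TALE class. All 9 cofactors entered at both ages, and 7 were higher in NP-like than in chondrocyte-like cells at each age, with 1 lower at P10 and 2 at 8 weeks, against the shares of all genes given above. Their median log2 ratio was 1.57 and 2.05. Pbx3 had log2 ratios of 1.55 and 1.70, Pbx4 3.82 and 3.64, Pbx2 1.32 at P10 and Pknox2 2.46 at 8 weeks. Meis1 and Meis2 were among the 7 at both ages, and the 2 lower at 8 weeks were Pknox1 and Meis3.

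Of 12 genes known to act upstream of Hox genes, 3 entered, with 2 lower at each age, where 15.4% and 15.6% of all genes were lower. Rarg, a retinoic acid receptor, was lower in NP-like cells (-1.17 and -1.03), as was Cyp26b1, which degrades retinoic acid (-2.64 and -3.18), and Rara was within 2-fold. Of 16 chromatin genes that keep Hox genes on or off, 13 entered at P10 and 15 at 8 weeks. In NP-like cells 1 and 2 of them were higher and 0 lower, a smaller share than the 20.1% of all genes that were higher at each age. Bmi1, a Polycomb gene, was higher at both ages (1.15 and 1.22) and Cbx7 at 8 weeks (2.74); the rest, including Kmt2a (0.42 and 0.47), Phc2 (0.10 and 0.03), Ezh2 (-0.45 and -0.48) and Suz12 (0.03 and 0.42), were within 2-fold. Bmi1 and Cbx7 were named after their values were seen, as the genes past 2-fold. Among 13 other regional factors, 6 entered at P10 and 2 at 8 weeks, and all were lower in NP-like cells, against 15.4% and 15.6% of all genes. Pax1, a sclerotome gene, was at 4.15 against 91.7 CPM at P10 and at 1.93 against 243.3 CPM at 8 weeks.

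Non-coding rows of the clusters went with their cluster in part. Of 8 such rows, 6 entered at P10, with 4 higher and 2 lower in NP-like cells, and 5 at 8 weeks, with 3 higher and 1 lower. Of all genes 20.1% were higher at each age, and 15.4% (P10) and 15.6% (8 weeks) were lower. Hoxd3os1 was at 17.7 against 1.597 CPM and at 28.2 against 1.64 CPM, Hotairm1 in HoxA at 41.0 against 18.6 and 46.4 against 16.8, and Hoxb3os at 17.5 against 2.30 and 18.7 against 4.45. Hotair, which lies in HoxC, had 0 UMIs in NP-like cells at P10 and was at 0.11 against 4.91 CPM at 8 weeks. Hoxd3os1, Hotairm1 and Hoxb3os share exon bases with members on the opposite strand, and how reads there were assigned is not given in the sources used here.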

How the data were processed

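Whole discs were dissociated with dispase and collagenase, strained, and profiled by droplet single-cell RNA sequencing (10x Chromium), per the labels' protocols. The authors deposited raw UMI counts per gene and cell, made with Cell Ranger 3.1.0, per the file headers. Seurat 3 and the builds mm10 and GRCm38 are named without a role, per the submitters' processing notes, and the annotation release is not given in the sources used here. Each age is 1 library, so the 4 samples per age in the labels could not be separated.

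Barcodes with at least 500 genes, 1000 UMIs and at most 15% mitochondrial UMIs were kept, which left 6999 of 7690 at P10 and 6481 of 7597 at 8 weeks. Doublet scores came from scanpy's Scrublet with an expected rate of 6%. It removed 139 cells at 8 weeks and called 0 at P10, so a score limit of 0.25 was added as an alternative after seeing the data. The libraries held 142087427 and 109429381 UMIs in kept cells. Cells of both libraries were clustered together with scanpy 1.11.5 and leidenalg 0.10.2 (2000 variable genes, 30 principal components, 15 neighbours, resolution 1). No correction between the libraries was applied. Hox genes, Tagln, mitochondrial, haemoglobin and sex-linked genes were kept out of the variable genes. A cluster was named from a list of which 3 or more markers were past 2-fold over the remaining cells and found in 25% of the cluster or more. A cluster with fewer was named where at least 8 markers of a list were in 50% of its cells, over 19 marker lists in all. A name was withdrawn where more of the cluster's 10 leading genes were markers of another class. It was also withdrawn from a cluster of low depth with none of its markers among those genes.

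Counts were summed per class and scaled to CPM. Intervals are 95%, exact Poisson for levels, Clopper-Pearson for shares and conditional binomial for ratios, and they cover counting error only. Where a sum was 0, the limit was 3 counts over the group. With 1 library per age there was no test. A gene entered a comparison when the 2 sums added up to 100 UMIs or more, and called means at least 2-fold. Scripts were tested on simulated data. Every member was accounted for, except that single values of 1 member and of 1 cofactor are not reported here, and of each other list up to 4 genes with the most UMIs in the class were named. Genes most like the Hox13 paralogs were the 5 with the highest lower bound and the 5 with the lowest upper bound of the ratio between cells with and without a Hox13 UMI, in the largest class of each library. The members and lists were chosen with earlier results of these data known. Alternatives were other resolutions, separate clustering, a depth minimum, detection, thinning, scaling and filters.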

Additional observations from a re-analysis of the deposited data

Results flagged for a closer look

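Some members were past 2-fold in opposite directions under the same contrast in different classes or ages, and in each case the difference itself was not tested, since there is 1 library per age. Hoxb9, a gene of the rib region, differed by 1.94 on the log2 scale between 8 weeks and P10 in NP-like cells and by -1.17 in tendon fibroblast-like cells, where it went from 74.0 to 32.9 CPM. Hoxb2, a hindbrain gene, differed by 1.11 between the ages in chondrocyte-like cells (5.93 and 12.8 CPM) and by -1.54 in tendon fibroblast-like cells (17.1 and 5.90 CPM). The chondrocyte-like value was -0.21 when only cells with at least 3000 UMIs were clustered and named anew, and the 2 largest chondrocyte-like clusters of 8 weeks, 20 and 21, had Hoxb2 at 5.24 and 17.5 CPM. Within a library, Hoxb2 was 1.53 higher in tendon fibroblast-like than in chondrocyte-like cells at P10, and the difference was -1.12 at 8 weeks. Hoxb4, a gene of the neck region, differed by 1.22 in chondrocyte-like cells and by -1.39 in endothelial-like cells (47.2 and 18.0 CPM). Without cells carrying markers of another class, Hoxb4 in endothelial-like cells was at 43.3 and 18.6 CPM. Hoxb2 shares 27.3% of its exon bases with the antisense gene Hoxb3os, so its counts are uncertain.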

How the results depend on the processing

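No paired analysis was possible because the numbered samples of each age are held in 1 matrix with no map from cells to samples. Of 234 alternatives to the main values, 202 kept direction and size, 30 moved and 2 reversed. The causes were not tested. Summed Hox CPM was 204.7 (resolution 0.5) and 212.6 (separate clustering) in chondrocyte-like cells at P10. With cells of at least 3000 UMIs clustered and named anew, where the chondrocyte-like class of 8 weeks held 626 cells instead of 1297, it was 221.7 there, the NP-like over chondrocyte-like log2 ratios were 1.85 (HoxA), -0.71 (HoxB) and -3.84 (HoxC) with 8 members lower, 6 members were higher with age in chondrocyte-like cells, and Hoxb2 reversed there to -0.21. As a mean over cells the sum was 398.1 in NP-like and 389.2 in tendon fibroblast-like cells at 8 weeks. The P10 HoxC ratio was -3.23 with separate clustering, -4.57 without cells carrying markers of another class and -5.45 with the doublet score limit. In tendon fibroblast-like cells 1 member was lower with age at resolution 2 and with separate clustering. Scaled to the median gene, 4 members were higher with age in NP-like cells. With a minimum of 30 UMIs, 1 was lower in NP-like cells, 2 were higher and 2 lower in endothelial-like cells, and 14 were higher and 1 lower in hypertrophic chondrocyte-like cells. Shares of all genes called were not computed for the alternatives, so these counts have no background beside them. Detection as 2 UMIs gave odds ratios of 0.112 (Hoxd13 and Hoxd9), 0.692 (Hoxc10 and Hoxd9), 29.0 (Hoxc6 and Hoxc8) and 0 (Hoxa13 and Hoxb13, 2.31 before). Thinning without strata gave 0.189 for Hoxc10 and Hoxd9 and 0.779 for Hoxa13 and Hoxb13. Thinned to 2000 UMIs, Hoxd9 was in 7.69% and 13.3% of NP-like cells, and Hoxc10 in 7.02% and 7.85% of chondrocyte-like and 0.770% of 8-week NP-like cells. Of 323 alternatives for single members between NP-like and chondrocyte-like cells, 315 kept their side of 2-fold and 0 reversed, and of 725 between ages 692 did and 1 reversed. Part of these alternatives could not differ. A minimum of 30 UMIs does not alter a ratio (96 of 96 the same). The score limit left out 0 NP-like and 0 chondrocyte-like cells at 8 weeks. At resolution 0.5 the NP-like cells were the same 295 and 2303. These counts, and the 202 of 234 above, thus include agreement fixed in advance. At resolution 0.5 no hypertrophic class was found at P10. By depth, a sum of 0 allows up to 0.461 CPM (P10) and 0.0682 CPM (8 weeks) in NP-like cells, and up to 1.14 and 1.38 CPM in endothelial-like cells.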

Other observations

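Cells with and without a UMI of a Hox13 paralog were compared over all genes with at least 200 UMIs, as a description with no test. In chondrocyte-like cells at P10, 1543 cells had such a UMI and 1864 had none, at median depths of 19431 and 16833 UMIs. The 5 genes named as higher were Egr4, Slurp1, S100a9, Ibsp and Snai1, with log2 ratios of 1.35, 0.80, 0.92, 0.81 and 0.65, and of 1.39, 0.36, 0.55, 0.19 and 0.66 without cells carrying markers of another class. Snai1, a transcription factor of mesenchymal cells, was at 0.76 in NP-like cells at 8 weeks. In the other classes it lay between -0.59 and 0.30, so the P10 chondrocyte-like value was not common to all classes. The 5 named as lower were Car1, Car2, Car3, Ccl5 and Serpina1e (-6.79, -3.06, -2.46, -2.46 and -1.91). Without cells carrying markers of another class these were 1.62, 0.25, -0.23, -2.48 and -0.39.

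In NP-like cells at 8 weeks, 185 cells had a Hox13 UMI and 2118 had none, at median depths of 23631 and 14843.5 UMIs. The genes named as higher were Ibsp (4.61), Alpl (3.66), Wif1 (3.04), Dcn (2.95) and Chad (2.89), known from bone, cartilage matrix and Wnt inhibition. Without cells carrying markers of another class these ratios were -0.31, 0.24, -0.69, -0.66 and 0.05. The genes named as lower were AY036118, Wnt16, Slurp1, Ndnf and Lars2 (-0.83, -0.78, -0.77, -0.74 and -0.66). Without those cells they were at -0.50, -0.77, -1.12, -0.48 and -0.37. Wnt16 is a secreted Wnt ligand. Slurp1 was thus higher with Hox13 in 1 class and lower in the other.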
